A study of Drosophila melanogaster with 4 samples.

Results

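Unpaired 21 nt small RNAs were the 21 nt sequence tags that had no partner on the opposite strand in 4 small RNA libraries of Drosophila melanogaster male larvae of the third instar. The tags of all 4 lists were pooled, and a 21 nt tag without an N counted as unpaired when no stretch of 15 or more of its bases was the exact reverse complement of a stretch in any other 21 nt tag. By this rule 6449 of 6986 tags (92.3%) were unpaired and 537 were paired, out of 252353 distinct tags of all lengths. The rule used sequence alone and no read count beyond a tag being listed. A limit sits in the rule itself, since 49 unpaired tags had a longest complementary stretch of 14 bases and 61 paired tags one of 15 bases. The tags just inside the rule held 24.8 and 31.4 reads per 1000000 listed reads (RPM) in the snapback libraries and 30.6 and 5.27 RPM in the yw libraries. Those just outside held 46.0 and 46.3 RPM in snapback and 19.7 and 4.22 RPM in yw.

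The 2 groups differed in genotype. The snapback males (n = 2 libraries) carried a construct for ectopic expression of double-stranded RNA of the 1.688 satellite, a tandemly repeated DNA of the fly genome. The yw males (n = 2 libraries) were of a laboratory strain. Each library was made from the pooled RNA of 50 larvae, and all larvae were male and in the same stage. The labels give neither the driver of the construct nor the genetic background it was crossed into, so any background difference between the strains cannot be told apart from the construct. Separate cultures behind the 2 libraries of a genotype are not stated either, so a p-value here covers the spread between libraries, which may be technical. The lists held 5330415 and 7782397 reads for the snapback replicates and 20453996 and 15183229 reads for the yw replicates, and they start at 4 reads. An unlisted tag therefore had 3 reads or fewer, which is 0.563, 0.385, 0.147 and 0.198 RPM in the same order.

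In flies, Dicer-2 cuts long double-stranded RNA into 21 nt small interfering RNAs from both strands, and these are loaded mainly into Argonaute2. MicroRNAs are cut by Dicer-1 from one arm of a short hairpin, loaded mainly into Argonaute1, and usually begin with U, which is written T in these lists. A microRNA finds its targets chiefly through its bases 2 to 8, the seed, so RNAs with the same seed are grouped as a family. Fragments of ribosomal and transfer RNA also come from a single strand. A single-stranded 21 nt tag can be any of these.

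Each RNA named here has a number, in order of its mean level in the higher group for the first 17. Each is shown by its seed in capitals, since full tag sequences are not printed. The first 8, which held most reads of the class, had these seeds.
Seed of the RNA named tag 1, which began with T: GGAATGT
Seed of the RNA named tag 2, which began with T: GGACGGA
Seed of the RNA named tag 3, which began with A: AGGGTCG
Seed of the RNA named tag 4, which began with A: TAGGGAC
Seed of the RNA named tag 5, which began with T: AGGGACG
Seed of the RNA named tag 6, which began with T: ACATATG
Seed of the RNA named tag 7, which began with A: GGCTGCA
Seed of the RNA named tag 8, which began with T: AAGGGTC
Here tag 5 began 1 base after tag 4, and tag 8 began 1 base before tag 3, so these seeds are the same letters moved by 1 base. Tags 1, 2, 6 and 7 shared no such frame with another of the 8. None of them was matched to a named small RNA or a chromosome, since no reference small RNA sequences were used here.

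Unpaired 21 nt RNAs were less abundant in the snapback libraries. They made up 15200 and 12676 RPM in snapback replicates 1 and 2, and 41568 and 27062 RPM in yw replicates 1 and 2. Both yw libraries lay above both snapback libraries, with means of 13938 ± 1785 RPM in snapback and 34315 ± 10258 RPM in yw (SD, n = 2 each). The difference of −20377 RPM had an exact two-sided permutation p of 0.333, the smallest that 2 against 2 libraries allow, and it was −13124 RPM without yw replicate 1. Its size depended on the denominator: the yw mean was 2.46-fold higher per listed reads, whereas the means were 28468 and 135031 per 1000000 reads of 18 to 30 nt and 108106 and 139094 when the most abundant tag was left out of that total. In whole larvae, fewer cells with an RNA and less of it per cell cannot be told apart. The paired 21 nt RNAs went the other way, with 1401 and 1215 RPM in snapback and 259 and 52.0 RPM in yw (p = 0.333, exact permutation test). The unpaired share of all 21 nt reads was accordingly 91.6% and 91.3% in snapback and 99.4% and 99.8% in yw. Its exact 95% binomial intervals were 91.4% to 91.7%, 91.1% to 91.4%, 99.4% to 99.4% and 99.8% to 99.8%. Reads were not collapsed to molecules, so all intervals and floors cover counting error only.

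A single RNA accounted for much of the lower level. Tag 1 alone held 52.4% of the difference between the group means, tag 2 held 19.3% and tag 5 held 12.7%. Tags 3 and 6 were more abundant in snapback and made contributions of the opposite sign, −14.1% and −8.93%. Without tag 1, the most abundant member, the level was 15190 and 12620 RPM in snapback and 26507 and 20720 RPM in yw, still without overlap.

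**Figure D1:**
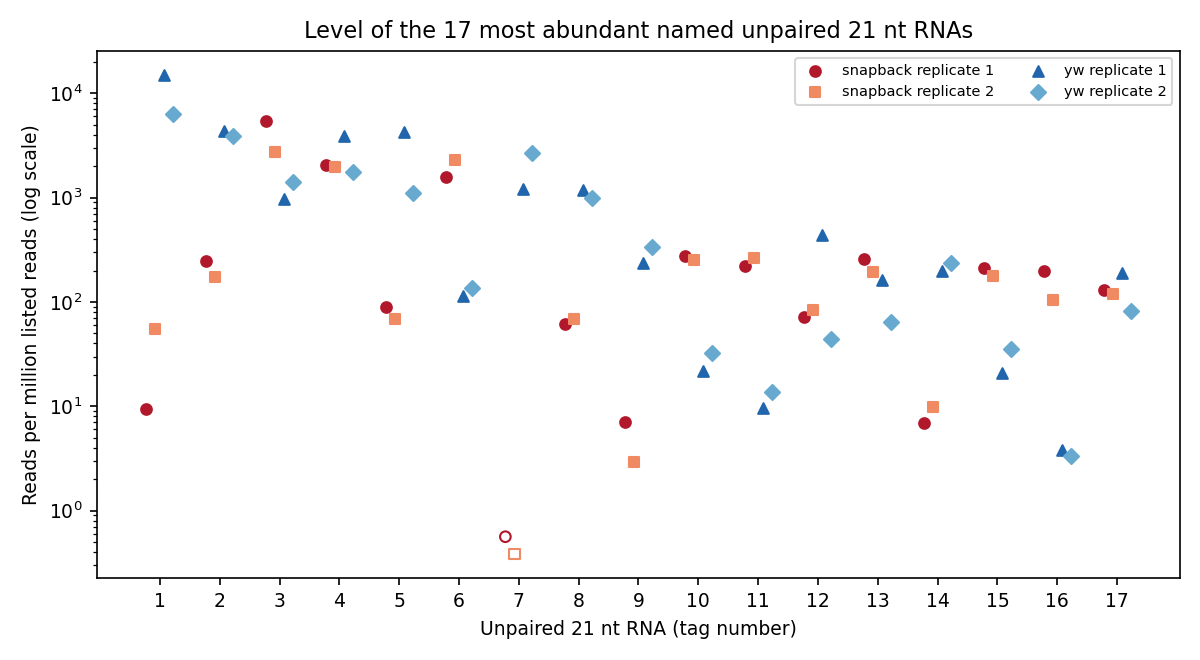
Level of the 17 most abundant named unpaired 21 nt RNAs in each library, in RPM on a log scale; circles and squares are the snapback libraries and triangles and diamonds the yw libraries, and open symbols mark the level of 3 reads where a tag was not listed. Tags 1, 2, 5, 7, 8, 9 and 14 lie higher in both yw libraries, and tags 3, 6, 10, 11, 13, 15 and 16 lie higher in both snapback libraries.

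Among the first 8 RNAs, tags 1, 2, 5 and 8 were lower and tag 6 was higher in snapback, without overlap and past the edgeR threshold, and tag 7 was listed in yw only. Tag 1 stood at 9.38 and 55.6 RPM in snapback and at 15062 and 6341 RPM in yw. Its group means differed 329-fold, and its fitted log2 difference, snapback minus yw, was −9.29 ± 1.14 (SE, adjusted p = 0.00154, edgeR quasi-likelihood test with Benjamini-Hochberg adjustment). The size of the fold rested on single libraries: it was 1141 without snapback replicate 2, 192 without snapback replicate 1 and 195 without yw replicate 1. Tag 2 had 248 and 175 RPM in snapback and 4380 and 3914 RPM in yw. It was 19.6-fold lower in snapback, a log2 difference of −5.38 ± 0.52 (adjusted p = 0.00154), and its replicates lay close together in both groups. Tag 7 was not listed in either snapback library and had 1208 and 2670 RPM in yw. Set against the highest level that 3 reads allow in a snapback library, it was at least 2146-fold lower in snapback.

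The RNAs on the shared frames of tags 3 and 4 moved apart from one another. Tag 8 had 61.5 and 68.6 RPM in snapback and 1177 and 982 RPM in yw, 16.6-fold lower in snapback (log2 difference −5.10 ± 0.64, adjusted p = 0.00154). Tag 3, which starts 1 base later, had 5414 and 2708 RPM in snapback and 977 and 1408 RPM in yw. Its groups did not overlap, but its log2 difference of 0.64 ± 0.51 did not pass the test (adjusted p = 0.266), and it passed where libraries were scaled by their totals alone (1.77, adjusted p = 0.0127). Tag 11 (first base A, seed GGGTCGG) starts 1 base after tag 3. It had 222 and 263 RPM in snapback and 9.58 and 13.7 RPM in yw, 20.8-fold higher in snapback (log2 difference 3.32 ± 0.80, adjusted p = 0.00433). These levels are of the 21 nt forms only. Summed over the 18 to 30 nt tags with its first 18 bases, tag 8 was higher in snapback. That sum was 5072 and 4868 RPM in snapback and 1649 and 1613 RPM in yw. For tag 3 it was 11682 and 10020 RPM in snapback and 4678 and 4832 RPM in yw. For tag 11 it was 1285 and 1091 RPM in snapback and 1045 and 1074 RPM in yw.

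Tag 5 had 89.5 and 68.2 RPM in snapback and 4233 and 1109 RPM in yw, with a log2 difference of −6.14 ± 0.79 (adjusted p = 0.00154). It was 33.9-fold lower in snapback, or 14.1-fold without yw replicate 1 and 53.7-fold without yw replicate 2. Tag 4, 1 base upstream, had 2077 and 1966 RPM in snapback and 3931 and 1754 RPM in yw. Its groups overlapped, and its log2 difference of −1.54 ± 0.52 (adjusted p = 0.0232) did not pass with library totals (−0.49, adjusted p = 0.402) or in DESeq2 (adjusted p = 0.189). On the RPM scale yw was 1.41-fold higher on average, and without yw replicate 1 the ratio was 0.868. Over all lengths, RNAs with the start of tag 4 were lower in both snapback libraries. They summed to 3059 and 2912 RPM in snapback and 20771 and 10386 RPM in yw, without overlap. With the start of tag 5 the sums were 4940 and 3523 RPM in snapback and 40715 and 17190 RPM in yw. The sums were not tested.

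Tag 6 was the most abundant RNA of the class that passed the test with a higher level in snapback. It had 1580 and 2310 RPM in snapback and 115 and 135 RPM in yw, 15.6-fold higher with a log2 difference of 2.93 ± 0.62 (adjusted p = 0.00219). It was identical to bases 10 to 30 of the most abundant 30 nt tag of the pool. In all, 7 members lay within that 30 nt tag. They summed to 1689 and 2468 RPM in snapback and 120 and 143 RPM in yw, or 11.1% and 19.5% of member reads against 0.290% and 0.529%.

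Of the other abundant RNAs, tag 9 (first base T, seed TTTCGGA) and tag 14 (first base C, seed AAGGGAA) were lower in snapback. Tag 9 had 7.13 and 2.96 RPM in snapback and 236 and 340 RPM in yw (adjusted p = 0.00154). Its 57.1-fold difference was 97.4-fold without snapback replicate 1 and 40.4-fold without snapback replicate 2. Tag 14 had 6.94 and 9.89 RPM in snapback and 199 and 235 RPM in yw (adjusted p = 0.00154). Tag 10 (first base G, seed TGCATTG) and tag 16 (first base C, seed GCAAAAG) were higher in snapback. Tag 10 had 279 and 253 RPM against 21.9 and 32.5 RPM in yw (adjusted p = 0.0221), and tag 16 had 198 and 104 RPM against 3.81 and 3.36 RPM (adjusted p = 0.0018). Neither pair of groups overlapped.

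The other 4 RNAs of this rank missed the threshold, or passed it with overlapping groups. Tag 15 (first base T, seed TCGGGAT) had 210 and 178 RPM in snapback and 20.9 and 35.5 RPM in yw, without overlap, and missed the threshold (log2 difference 1.69 ± 0.76, adjusted p = 0.0669). It passed with library totals (2.78, adjusted p = 0.00496). Tag 12 (first base T, seed GGCAAGA) had 72.0 and 84.7 RPM in snapback and 436 and 44.0 RPM in yw, so the yw libraries lay on both sides of snapback. Its adjusted p was 0.042, and without yw replicate 1 the log2 difference went from −2.62 to −0.15 (adjusted p = 0.811). Tag 13 (first base T, seed AATACTG) had 260 and 194 RPM in snapback and 162 and 64.3 RPM in yw, with a log2 difference of −0.06 ± 0.72 (adjusted p = 0.944) whose sign changed with the scaling. Tag 17 (first base T, seed GAGATCA) had 130 and 118 RPM in snapback and 191 and 82.3 RPM in yw, which overlapped (adjusted p = 0.162). Over all lengths, RNAs with the start of tag 17 were higher in both snapback libraries. They summed to 1460 and 1570 RPM in snapback and 720 and 425 RPM in yw. With the start of tag 13 the sums were 2837 and 2884 RPM in snapback and 2537 and 1860 RPM in yw, also without overlap. With the start of tag 12 they were 1127 and 1144 RPM in snapback and 2630 and 773 RPM in yw, which overlapped. The sums were not tested.

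The first base of the class differed between the genotypes. T began 26.5% and 37.4% of member reads in snapback and 73.7% and 63.6% in yw. A began 63.2% and 50.5% in snapback and 20.4% and 29.9% in yw. The groups did not overlap for either base (exact permutation p = 0.333 for each), and C and G were the minor starts in every library. By first base, C began 5.45% and 6.83% in snapback and 3.49% and 3.73% in yw, and G began 4.89% and 5.30% in snapback and 2.42% and 2.77% in yw.

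The difference was smaller when each distinct tag counted once. Counted over distinct tags, T began 31.6% and 31.9% in snapback and 38.6% and 38.9% in yw. The base A began 37.0% and 33.6% in snapback and 30.4% and 31.0% in yw. The directions were those of the reads, but the difference in the T share shrank from −36.7 to −6.94 percentage points. Without tag 1 the T share of reads was 26.4% and 37.1% in snapback and 58.8% and 52.5% in yw. Tags 3 and 4, which begin with A, were the 2 RNAs with the highest mean in snapback.

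The paired 21 nt RNAs had the opposite order of T starts, with 55.2% and 51.4% of reads in snapback and 32.9% and 32.5% in yw. The T share of unpaired reads minus that of paired reads was −28.7 and −14.0 percentage points in snapback and 40.8 and 31.1 in yw. This difference of differences, tested over the 4 libraries, had no overlap and the smallest possible p (0.333, exact permutation test).

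**Figure D2:**
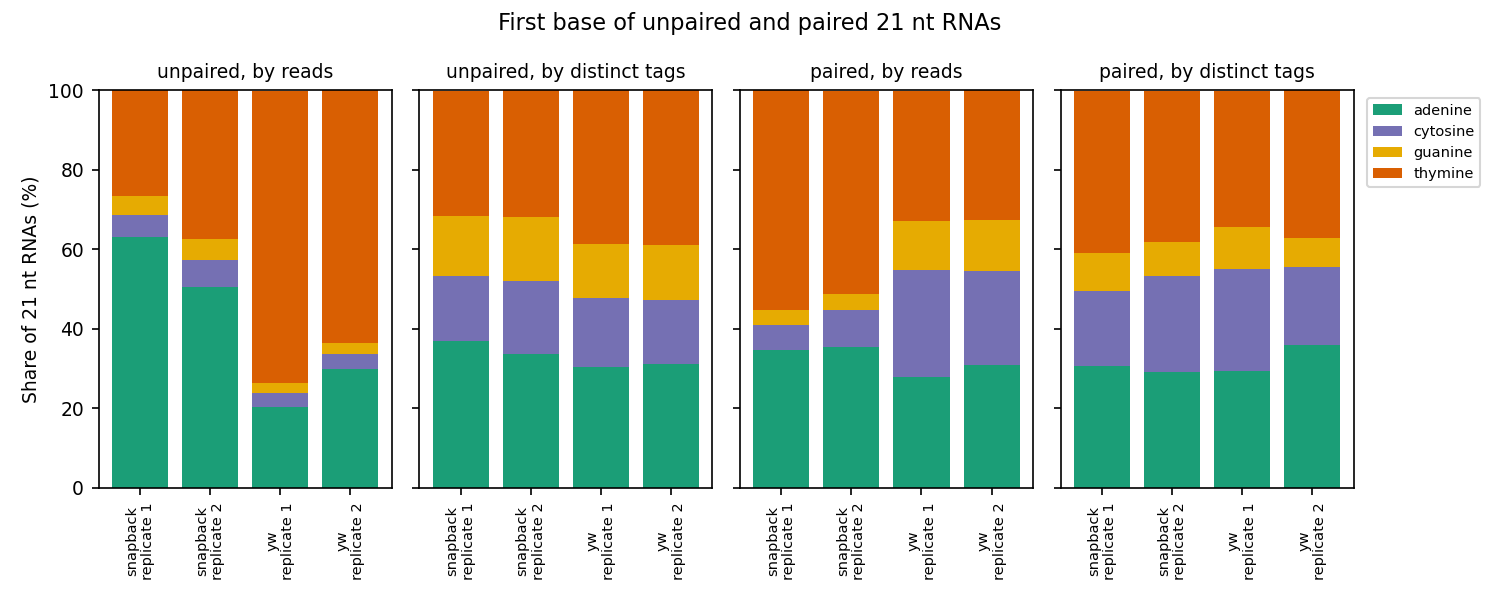
Share of 21 nt RNAs that begin with each base, in percent, for unpaired and paired RNAs, counted by reads and by distinct tags; each bar is 1 library and adds to 100%. T begins most unpaired reads in yw and A most in snapback, while the distinct tags differ less.

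Single tags dominated the unpaired reads in every library. The most abundant tag held 35.6% and 21.4% of member reads in snapback and 36.2% and 23.4% in yw. It was tag 3 in both snapback libraries and tag 1 in both yw libraries. The 10 most abundant tags of each library held 70.0% and 65.5% in snapback and 76.7% and 69.8% in yw, which overlapped (exact permutation p = 0.667). It took 3, 3, 3 and 4 tags to reach 50% of the member reads, and the 100 most abundant held between 85.7% and 88.8%. This comparison depended on the setting: with 17 bases as the pairing stretch the means were 67.3% and 73.2% without overlap, and without tag 1 they turned to 67.9% in snapback and 62.7% in yw, also without overlap (p = 0.333 for each, exact permutation test).

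The paired RNAs were less uneven in yw than in snapback. Their 10 most abundant tags held 64.4% and 57.1% of paired reads in snapback and 34.5% and 38.4% in yw, and 50% of the reads took 3 and 5 tags in snapback and 23 and 17 in yw (p = 0.333, exact permutation test). The yw libraries held few paired reads, 5291 and 790, against 7466 and 9458 in snapback.

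**Figure D3:**
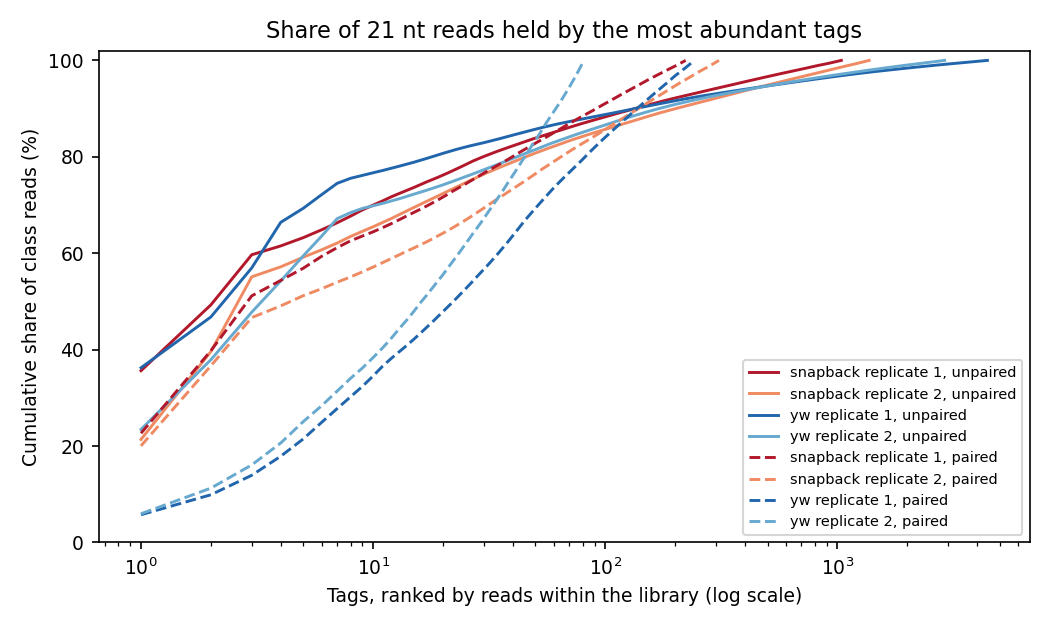
Cumulative share of reads, in percent, held by the most abundant tags of each library, with tags ranked within the library on a log scale; solid lines are unpaired and dashed lines paired 21 nt RNAs. The solid lines of the 4 libraries run close together and reach 65.5% to 76.7% at 10 tags, while the dashed yw lines stay at 34.5% and 38.4% there.

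Most members were rare. Of 6449 members, 4089 (63.4%) were listed in 1 library only, 706 (10.9%) in both genotypes and 333 (5.16%) in all 4 libraries. The lists held 1040 and 1371 members in snapback and 4430 and 2899 in yw, and between 18.7% and 22.2% of these stood at the lowest listed count. The yw lists were also deeper, and the part of depth in these counts was not tested. The 333 members in all 4 libraries held 91.2% and 87.4% of member reads in snapback and 82.9% and 71.8% in yw. The log2 levels of these 333 correlated with r = 0.855 within snapback, r = 0.871 within yw and r = 0.480 to 0.533 from one genotype to the other. These values only describe the libraries, since tags are not independent.

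Members listed in a single genotype held a minority of the reads. The 972 members (15.1%) listed in snapback only summed to 897 and 1119 RPM, or 5.90% and 8.83% of member reads there, and 305 of them were in both snapback libraries. The 4771 members (74.0%) listed in yw only summed to 6150 and 7014 RPM, or 14.8% and 25.9%, and 1349 of them were in both yw libraries. Their absence from the other genotype is how they were chosen and is no test.

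The edgeR fit over all tags could test 971 of the 6449 members, since the others were too low for its filter. Of all 30852 tags tested, 79.1% were called, 36.8% higher and 42.3% lower in snapback. Among the 8186 of these with 18 to 30 nt, 75.6% were called, 32.8% higher and 42.9% lower. Of the 971 members, 71.6% were called, 225 (23.2%) higher and 470 (48.4%) lower in snapback. The share called was thus near that of all tags, with fewer members on the higher side. Their median log2 difference was −2.32, against −0.71 over all tags tested. Scaling moved these medians. With library totals they were −1.24 and 0.35, and in a fit of 18 to 30 nt tags that left out the most abundant one, −0.73 and 0.47, so the median of all tags moved by over 1 log2 unit. Relative to it, members lay lower by 1.60, 1.59 and 1.20 under the 3 scalings in this order, and by 0.81 in a fit of 18 to 30 nt tags only. The median of all tags minus that of the members was −0.23 without the filter on low counts, −0.18 and −0.14 without snapback replicate 1 and 2, −4.97 without yw replicate 1 and 3.42 without yw replicate 2, so which of the medians was lower depended on the filter and on single libraries.

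In the fit of 18 to 30 nt tags that left out the most abundant one, 248 members (25.9%) were higher and 326 (34%) lower of 958 tested. The background in that fit was 36.3% higher and 31.3% lower among 8003 tags. Of the members called there, 43.2% were on the higher side, against 32.4% of those called in the first fit. Members listed in all 4 libraries had fewer calls, 31 higher and 86 lower of 302 tested (38.7%), against 43.3% of 8413 such tags of any length. With 1 library of either group left out, edgeR called 0 members, the named tags included. Then 41 and 37 members had an unadjusted p under 0.05 without snapback replicate 1 and 2, and 584 and 837 without yw replicate 1 and 2.

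Lower calls outnumbered higher ones for every first base, as they did over all tags (42.3% against 36.8%). Among tested members beginning with T, 65 (17.3%) were higher and 213 (56.6%) lower in snapback of 376. Those beginning with A had 79 (25.7%) higher and 123 (40.1%) lower of 307, those with C 44 (29.5%) higher and 68 (45.6%) lower of 149, and those with G 37 (26.6%) higher and 66 (47.5%) lower of 139. With library totals as the scaling, the background turned to 42.0% higher and 37.8% lower, while the members had 28.4% higher and 40.6% lower. The paired 21 nt RNAs had 110 higher and 14 lower of 145 tested.

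Many members were close relatives of an abundant one. A member that differed by 1 base from a member with at least 10 times its reads was counted as a one-base variant, and there were 1704 (26.4%). Another 1721 (26.7%) shared the bases of a more abundant member in a frame moved by 1 to 3 bases, counted as shifted forms, and 3024 (46.9%) were separate. Separate tags held 87.2% and 85.9% of member reads in snapback and 76.3% and 77.5% in yw. One-base variants held 5.32% and 4.33% in snapback and 5.92% and 10.8% in yw, and shifted forms 7.53% and 9.75% in snapback and 17.7% and 11.7% in yw. Of the tested members, 154 separate tags (31.3%) were higher and 210 (42.7%) lower of 492, close to the 32.8% and 42.9% of all 18 to 30 nt tags tested. Among one-base variants 19 (8.3%) were higher and 138 (60.3%) lower of 229.

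The positions of the one-base variants differed from library to library. Around parents with at least 20000 reads in a library, there were 74.3, 65.5, 64.8 and 129 variant reads per 1000 parent reads in snapback replicates 1 and 2 and yw replicates 1 and 2. In yw replicate 1, 71.6% of these reads had the change at bases 1 to 11, and in yw replicate 2 9.73% did, and tag 1 was the leading parent in both. The snapback libraries had 38.9% and 54.4% there, from 1 parent tag each. A-to-C and G-to-T changes made up 47.3%, 43.2%, 63.5% and 82.9% of the variant reads.

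**Figure D4:**
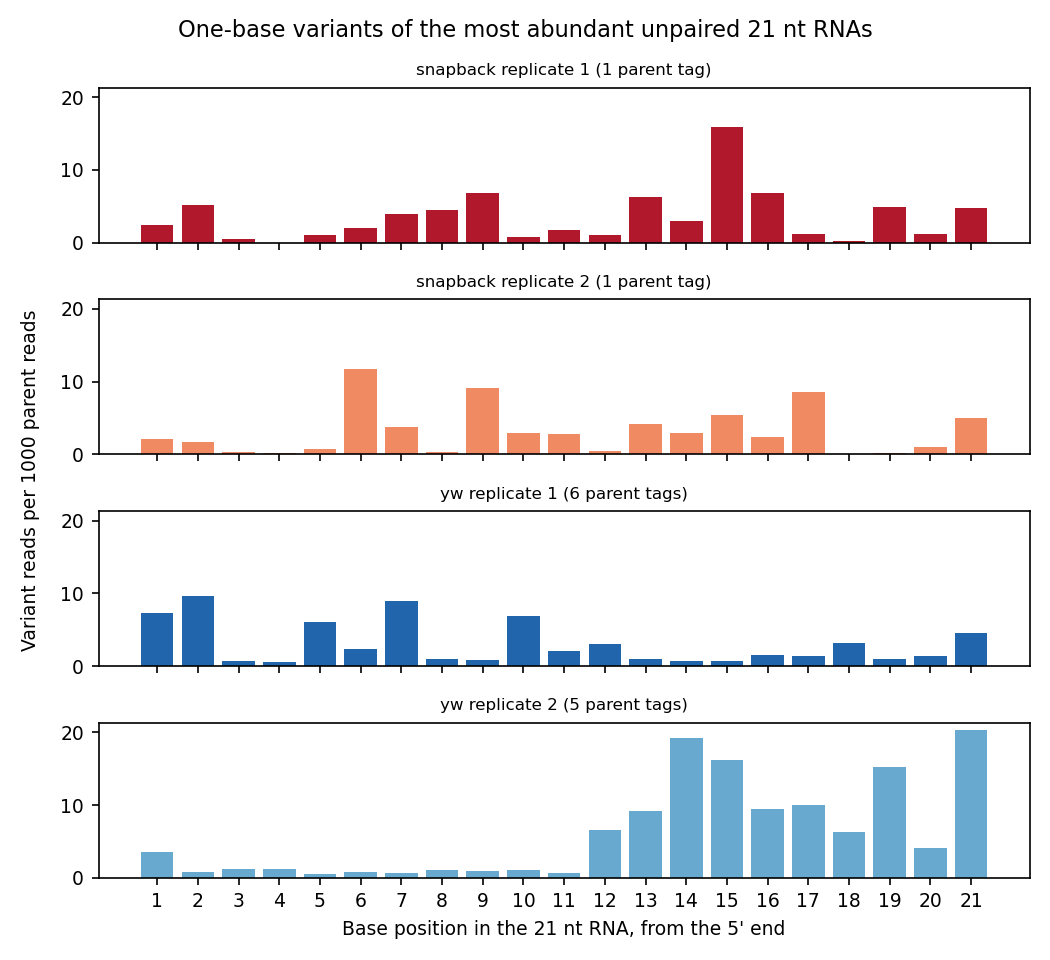
Reads of one-base variants per 1000 reads of their parent tags at each base of the 21 nt RNA, counted from the 5′ end, in each library, for parents with at least 20000 reads there. Yw replicate 2 rises from base 12 on, with 19.2 at base 14 and 20.3 at base 21, while yw replicate 1 has its highest values, 9.58 and 9.0, at bases 2 and 7.

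Bases 2 to 8 gave 3315 distinct seeds of 16384 possible ones. A single tag carried 2389 of them, 64 were shared by 10 or more tags, and 273 consisted only of one-base variants of tags with another seed. The 6 most abundant seeds of each library held 68.5% and 63.2% of member reads in snapback and 75.1% and 74.8% in yw. GGAATGT, the seed of tag 1, was carried by 90 tags and summed to 9.38 and 56.2 RPM in snapback and 15347 and 7415 RPM in yw. Tag 1 held 94.8% of those reads, and 42 of the 90 tags were 1 base and 28 were 2 bases from it. This seed group was thus mostly a leading tag with its close variants.

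The seed GGACGGA had 263 and 185 RPM in snapback and 4544 and 4675 RPM in yw over 70 tags, with 91.0% of reads in tag 2. GGCTGCA, the seed of tag 7, had 0 RPM in both snapback libraries and 1233 and 3027 RPM in yw over 46 tags. None of its 46 tags was listed in snapback. The seed of tag 6, ACATATG, was higher in both snapback libraries, with 1638 and 2354 RPM against 117 and 155 RPM in yw over 34 tags. The seeds AGGGTCG and TAGGGAC, of tags 3 and 4, were each carried by 111 tags. AGGGTCG summed to 5745 and 2858 RPM in snapback and 1106 and 1676 RPM in yw, without overlap. TAGGGAC summed to 2214 and 2069 RPM in snapback and 4314 and 2105 RPM in yw, which overlapped.

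The 173 separate tags with at least 10 RPM in any library fell on 139 seeds. Among them, 6 seeds were shared by 2 or more tags that differed from one another at over 3 bases. An example is AGCACCA, chosen after its values were seen, whose carriers had 26.3 and 51.1 RPM in snapback against 1.22 and 2.44 RPM in yw, and 43.7 and 29.2 RPM against 1.08 and 1.38 RPM. Both were higher in both snapback libraries. The carriers of GGGATGT went the other way. The first had 3.19 and 0.899 RPM in snapback against 60.2 and 80.8 RPM in yw. The other was unlisted in snapback and had 4.60 and 12.8 RPM in yw. For GGAATTT and AAGGGTC, the 2 highest carriers were listed in a single yw library only. For AGGGTCG and TAGGGAC, the second carrier was listed in yw only.

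Many of the 21 nt reads belonged to RNAs read most at another length, more so in yw. For each member, the reads of all 18 to 30 nt tags with its first 18 bases were summed by length. In snapback 80.1% and 55.2% of member reads belonged to RNAs whose most-read length was 21 nt, against 13.6% and 26.5% in yw. RNAs read most at 22 nt held 5.77% and 6.03% of member reads in snapback and 53.0% and 46.0% in yw. Both measures had no overlap (exact permutation p = 0.333). The lower value of snapback replicate 2 in the 21 nt share came with a 23 nt share of 28.6%, since the most-read length of tag 3 was 23 nt there and 21 nt in snapback replicate 1.

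Tags 1 and 2 belonged to RNAs read most at 22 nt in all 4 libraries. Over all lengths, RNAs with the start of tag 1 had 165 and 885 RPM in snapback and 52541 and 26814 RPM in yw, and the 21 nt form was 5.69% and 6.29% of them in snapback and 28.7% and 24.8% in yw. For tag 2 the 21 nt form was 5.66% and 5.70% in snapback and 10.97% and 9.45% in yw. The 21 nt form was thus a larger share of both RNAs in both yw libraries, beside the difference in the RNA itself.

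Tag 9 had no overlap in its 21 nt form, while its total over all lengths overlapped. Its start had 1956 and 971 RPM over all lengths in snapback and 2612 and 1874 RPM in yw, and was read most at 24 nt. The 21 nt form was 0.365% and 0.304% in snapback and 9.03% and 18.8% in yw. Tags 12, 13 and 17 belonged to RNAs whose most-read length was 23 nt in every library, which for tag 12 in yw replicate 1 held 37.9% of the reads beside 34.6% at 22 nt. Tags 6, 7 and 16 were mostly 21 nt long where listed. Reads at 21 nt were 98.4% to 99.6% for tag 6 and 95.4% and 94.8% in yw for tag 7. For tag 16 they were 97.1% and 96.3% in snapback and 75.7% and 82.3% in yw.

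The RNA of tags 3, 8 and 11 differed in its 3′ ends between the genotypes. These tags share 19 bases, and all 18 to 30 nt tags that hold those bases summed to 21898 and 20646 RPM in snapback and 7969 and 7745 RPM in yw. Reads that ended at the last shared base were 1.07% and 1.24% in snapback and 73.8% and 64.7% in yw. Ends 3 bases further on were 34.5% and 41.4% in snapback and 2.61% and 3.26% in yw. The most used start, 1 base before the shared bases, was the same in all 4 libraries, with 53.0% and 48.5% of the reads in snapback and 59.5% and 60.9% in yw. Tag 8 ends at the last shared base, tag 3 ends 1 base further on and tag 11 ends 2 bases further on.

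Tags 4 and 5 share 20 bases, and their ends differed too. These shares cover only tags that hold all 20 bases, so forms that end earlier are left out. Reads that ended at the last shared base were 97.7% and 97.5% in snapback and 68.6% and 78.7% in yw. Ends 1 base further on were 2.07% and 2.24% in snapback and 27.8% and 19.6% in yw. Tag 5 ends at that later base. The sum over all tags with the shared bases was 7031 and 5619 RPM in snapback and 22749 and 8853 RPM in yw, without overlap. Forms of 18 nt, which end earlier, were 25.6% and 27.0% of reads with the start of tag 4 in snapback. In yw they were 40.4% and 50.0%. With the start of tag 5 they were 2.80% and 2.43% in snapback and 31.9% and 35.6% in yw.

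**Figure D5:**
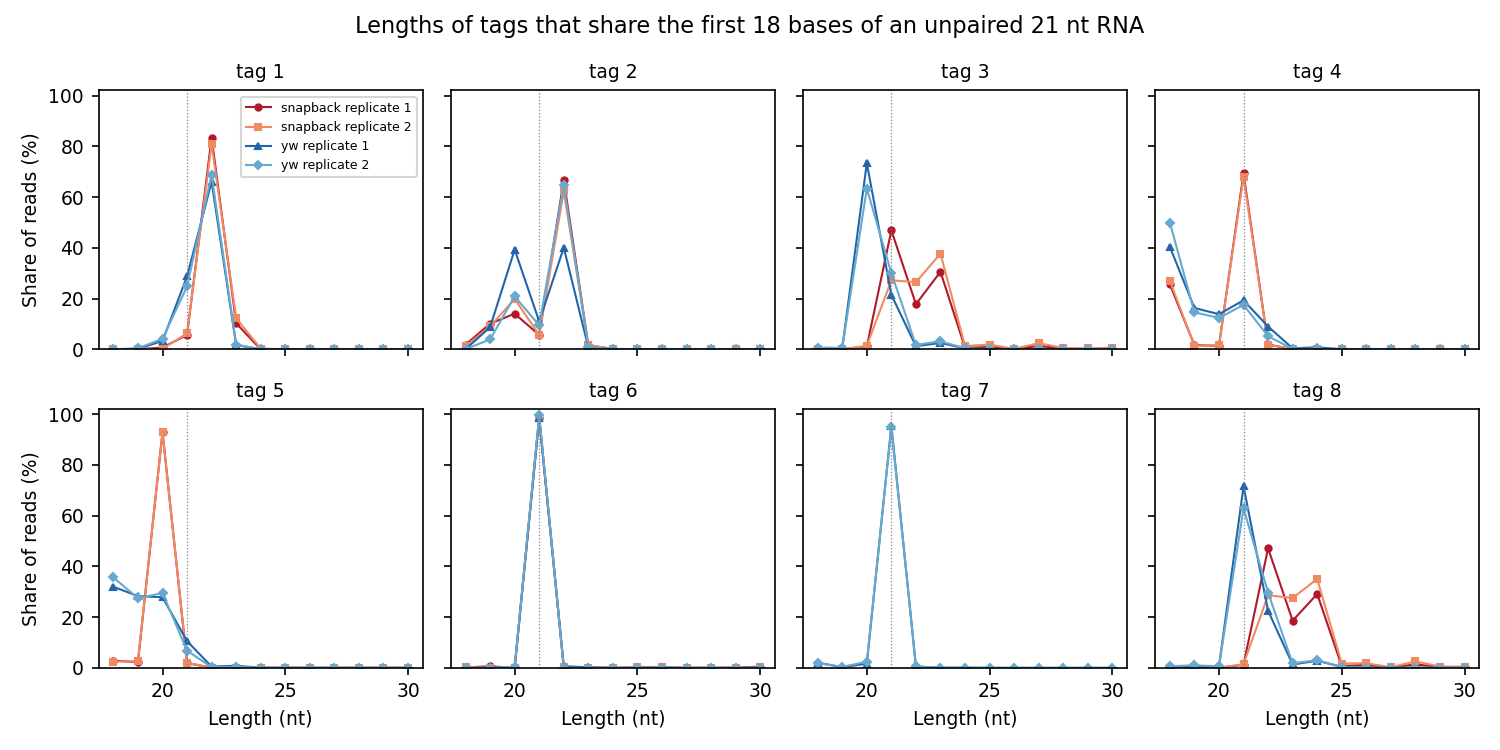
Share of reads, in percent, at each length from 18 to 30 nt among tags with the same first 18 bases as tags 1 to 8, in each library; the dotted line marks 21 nt, and tag 7 has yw lines only because it was not listed in snapback. Tags 1 and 2 peak at 22 nt (tag 2 in yw replicate 1 also at 20 nt), tags 6 and 7 peak at 21 nt, and tags 3, 4, 5 and 8 have other lengths in snapback than in yw.

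The largest decreases by fitted difference, after tag 7, were 7 RNAs that neither snapback library listed. This order rests on how an unlisted tag is fitted: with absent tags set to 3 reads, tag 1 had a log2 difference of −8.91 and these 7 had −7.87 to −7.17. Tags 18, 19, 20 and 21 all had the seed GGAATGT and were one-base variants of tag 1, at bases 14, 10, 21 and 19. Each was abundant in 1 yw library only. Tag 18 had 2.40 and 137 RPM in yw, tag 19 had 136 and 2.50 RPM, tag 20 had 5.18 and 109 RPM, and tag 21 had 1.37 and 102 RPM. Tag 24, a variant of tag 7 at base 14, had 1.32 and 89.8 RPM. Set against 3 reads in snapback, these 5 were at least 2.35-fold to 9.21-fold lower. The library in which each was high was the one with the higher variant share at that base in the plot of variants by position. These tags are themselves part of those shares, and the part of a library's variant pattern in their levels was not tested.

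Tags 22 and 23 were no variants and had like levels in both yw libraries. Tag 22 (first base A, seed GAAGAGG) had 56.6 and 42.0 RPM in yw and was at least 74.5-fold lower in snapback. Tag 23 (first base C, seed AGAAGAG), which begins 1 base earlier, had 47.3 and 44.4 RPM and was at least 78.9-fold lower. All tags with the 20 bases they share summed to 1.501 and 0 RPM in snapback and 564 and 426 RPM in yw.

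The largest increases were of lower level, and 6 of the 8 were listed in snapback only. Tag 25 (first base T, seed GAGTATT) had 28.3 and 42.5 RPM in snapback and 0.342 and 0.263 RPM in yw (log2 difference 5.80 ± 1.05, adjusted p = 0.00154), and it belonged to an RNA read most at 23 nt in snapback. Tag 26 (first base T, seed AAGGTCG) had 18.4 and 20.6 RPM in snapback and 0 and 0.329 RPM in yw (adjusted p = 0.00496). Both had few yw reads, so the fold is not given.

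Of the snapback-only tags, tag 29 (first base C, seed CGGTCGG) had 13.9 and 15.2 RPM and tag 30 (first base T, seed TTGGCCA) had 14.4 and 12.3 RPM. They were at least 70.3-fold and 62.4-fold higher in snapback. Tag 27 (first base T, seed CGTAGCG) had 7.88 and 30.8 RPM, tag 31 (first base A, seed ACACCGC) 8.63 and 18.1 RPM, and tag 32 (first base T, seed TAGAGGG) 4.88 and 16.8 RPM. Each of these was higher in snapback replicate 2. Tag 28 (seed ACCTATG), a variant of tag 6 at base 4, had 3.19 and 31.7 RPM, at least 16.1-fold higher. The whole rule for largest changes had 30 members to choose from on the higher side and 100 on the lower side.

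Few members had other marks of a known source. Those ending in CCA, the letters added to the 3′ end of transfer RNA, numbered 44 and summed to 52.2 and 37.0 RPM in snapback and 17.2 and 15.6 RPM in yw. Another 62 members had a partner on the opposite strand among tags of 18 to 30 nt though none among 21 nt tags, and they held 18.8 and 32.8 RPM in snapback and 49.5 and 35.3 RPM in yw. The G and C share of member bases was 56.7% and 53.9% in snapback and 48.1% and 48.8% in yw by reads, and between 49.6% and 51.6% by distinct tags in the 4 libraries.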

How the data were processed

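Small RNA of 50 male larvae per sample was extracted in Qiazol, enriched with the miRNeasy kit and made into libraries with the Illumina small RNA TruSeq kit, per the labels' protocols. The authors deposited whole read counts per distinct tag, per the file headers, not normalized and without coordinates. The genome build dm3 is named in the submitters' processing notes. How reads were trimmed or aligned is not given in the sources used here. Counts in the lists began at 4, so RPM and shares refer to listed reads and the lists' totals are not full depths. The 80 tags of 21 nt that held an N were left out.

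The counts of all tags in the 4 libraries were compared with edgeR 4.0.16 in R 4.3.3, using TMM normalization, the filterByExpr filter, the quasi-likelihood test and Benjamini-Hochberg adjustment over all tags tested at a threshold of 0.05. TMM factors were 1.494 and 1.183 in snapback and 0.6807 and 0.8311 in yw, so fitted log2 differences lie below those of RPM values. A fitted difference of a tag not listed in 1 group depends on the prior count and is not printed. Its fold is a lower bound, computed from the lowest listed library and the highest 3-read level of the group without the tag. Class levels and shares had exact two-sided permutation tests over libraries, whose smallest p is 0.333, and adjustment over these tests could only raise it. Shares have exact Clopper-Pearson 95% intervals. The labels tie no replicate number to a batch, so libraries were not paired.

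The members and lists were chosen with earlier results of these data known. Named tags were the 10 with the highest mean RPM in each group and, among members past the threshold with a mean of at least 10 RPM in the higher group and no overlap between groups, the 8 largest increases and the 8 largest decreases. Named seeds were the 6 most abundant in each group. Alternatives were other scalings, DESeq2 1.42.0, no filter, tags of 18 to 30 nt only, absent tags set to 3 reads, stretches of 13 or 17 bases as pairing, other denominators and leaving out each library. The planned match to known microRNA families was not run, since no small RNA reference sequences were used here, and full tag sequences are not printed because no chromosome could be looked up for them.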

Additional observations from a re-analysis of the deposited data

How the results depend on the processing

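The class level, the first base shares and the unpaired share of 21 nt reads kept their direction under every alternative run, and with 2 libraries a group no permutation test of them could pass a threshold of 0.05. Leaving out each library gave −27631 to −13124 RPM for the level, −42.2 to −31.3 percentage points for the T share, 25.4 to 38.0 for the A share, −8.40 to −7.97 for the unpaired share and −8.95 to −2.10 for the share of the 10 most abundant tags. That last difference was −5.52 and turned to 5.18 without the most abundant member. Per 1000000 reads of 18 to 30 nt the level was 28468 in snapback and 135031 in yw, and without the most abundant tag in that total, a choice made after seeing the data, 108106 and 139094. Of the fits, the 1 without a filter on low counts tested all 6449 members and called 110 (2 higher, 108 lower; 854 at an unadjusted p under 0.05), with 12 of the 32 named tags called against 28. The replicate block called 0 members in either direction and 0 named tags (412 members at an unadjusted p under 0.05). Deviations of same-numbered libraries from their group means had a correlation of −0.041 over 30852 tags. With 1 such deviation per group and tags that are not independent, this cannot show whether same-numbered libraries shared a batch. Without any 1 library the counts were 0 to 0 for members, in each direction, and for named tags. The remaining fits called 574 to 757 members and 25 to 29 named tags. Tag 13, near no difference at −0.06, turned to 1.01 with library totals, 0.01 with DESeq2 size factors and 0.01 in DESeq2, 0.26 in 18 to 30 nt tags, 0.41 there without the most abundant tag, 0.33 with absent tags at 3 reads, 0.07 with the replicate block and −0.74 to 0.83 over the fits without 1 library. The cause of these changes was not tested. Depth limits the rare members, most of which were too low to be tested.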
